A study of Homo sapiens with 12 samples.

Results

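The 10 keratin genes described here are KRT5, KRT6A, KRT7, KRT8, KRT17, KRT18, KRT19, KRT20, KRT80 and KRT81. They were found as the rows of the 12 count tables whose gene name equals one of these symbols, 10 of 46350 named genes. The libraries were RNA sequencing of SKOV3, a cisplatin-sensitive cell line of human epithelial ovarian cancer, and of SKOV3/DDP, a cisplatin-resistant line that the study's methods describe as developed from SKOV3. Each line was sequenced untreated and after treatment with PAE (paeonol, a phenolic compound of peony root), with 3 libraries in each of the 4 groups and 12 in all. The labels give no dose and no treatment time for PAE, and no other agent. The methods state that the lines were characterised by short tandem repeats. The design text speaks of biological and experimental triplicates without saying which libraries came from separate cultures, so the spread between libraries, and each p-value, may cover technical error only.

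Keratins are the intermediate filament proteins of epithelial cells. Type I (acidic) and type II (basic) keratins form obligate pairs, so a filament needs a member of each type. KRT8 and KRT18 are the pair of simple, single-layered epithelia, often joined by KRT7 and KRT19, while KRT5, KRT6A and KRT17 belong to basal, stratified or wounded epithelia, KRT20 to the intestinal and urothelial lining, and KRT81 to the hair shaft. Pathologists use KRT7 and KRT20 together to assign the origin of carcinomas, with KRT7 typical of ovarian and KRT20 of colorectal tumours. Type I members here are KRT17, KRT18, KRT19 and KRT20, and the others are type II. KRT18 is the exception in its place: it lies at chr12:52948855-52952906 beside KRT8 (chr12:52897191-52949860) and the other type II genes such as KRT7 (chr12:52233243-52252667), while KRT17 (chr17:41619442-41624575) and KRT19 (chr17:41523617-41528308) are in the type I cluster (GRCh38).

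Keratin genes resemble each other, so it matters whether a read can be assigned to one member. The most alike gap-free coding stretches of 60 bases, inside 1 exon of each gene, are shown for KRT17, nearly without counts in SKOV3/DDP, and KRT19, a member of the same type that this line held in quantity. They were read from GENCODE 29 transcripts on GRCh38, and capitals mark the bases that differ between them. The stretches lie at chr17:41624192-41624251 (KRT17, exon 1, minus strand) and chr17:41527942-41528001 (KRT19, exon 1, minus strand).
KRT17: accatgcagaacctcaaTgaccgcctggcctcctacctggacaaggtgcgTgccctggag
KRT19: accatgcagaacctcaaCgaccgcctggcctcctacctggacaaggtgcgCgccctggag

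Even where this pair was most alike, 2 of 60 bases differed. Other pairs were closer: KRT5 with KRT6A, and KRT80 with the more abundant KRT8, had a stretch of 60 identical coding bases, and the read length is not given in the sources used here. Over 100-base windows of their transcripts, KRT19, KRT20 and KRT80 shared no window exactly with a transcript of another gene, and KRT17 shared 0.322%, with the pseudogene KRT17P3. KRT7 shared 7.67% of its windows with its antisense gene KRT7-AS, and KRT8 7.56% with pseudogenes, KRT8P3 foremost. KRT18 shared 16.6% with KRT8, whose gene overlaps it on the other strand. KRT6A shared 18.2%, nearly all with KRT6C, and KRT81 shared 30.3%, nearly all with KRT86, so the counts of these last members are less certain. How reads that match several genes were counted, and on which strand, is not given in the sources used here.

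Library totals ran from 14610008 to 18263479 counts. Levels are given as CPM (the standard count unit relative to library size, with library sizes scaled by edgeR's TMM factors), as mean ± SD of 3 libraries where a mean is given. The untreated SKOV3 libraries stood apart in base composition: a gene's deviation from its mean over the 12 libraries rose with its GC content in these 3, with a Spearman correlation of 0.676 to 0.682. In the remaining 9 libraries it fell with GC content (−0.538 to −0.328). These correlations run over 15683 genes of a library, and genes are no replicates. Of the 10 keratin transcripts, all but that of KRT20 (45.7%) lay above the median GC content. That of KRT7 held 62.9%, KRT81 62.3%, KRT17 and KRT19 61.8% each, KRT18 60.5% and KRT8 60.2%, against a median of 49.9% over the genes compared. The trend and the group cannot be told apart in comparisons with untreated SKOV3, so the test results of the keratins in these comparisons are also given after a smooth curve of GC content and length was subtracted in every library (the trend removed). In bulk RNA, fewer cells with a keratin and less of its RNA per cell cannot be told apart.

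The lines differed first of all in which keratins they made. KRT7 and KRT17 were among the abundant keratins of SKOV3 and nearly without counts in SKOV3/DDP. KRT19 showed the opposite difference, and KRT8 and KRT18 were high in both. Of the 8 keratins with enough counts to be tested, 4 were higher and 4 lower in untreated SKOV3/DDP (quasi-likelihood test of edgeR, p adjusted over 17133 genes by Benjamini and Hochberg, threshold 0.05). The background was high: 81.8% of all genes tested passed, 45.8% as higher and 36.0% as lower, so the number of keratins called is no result about keratins. With an unadjusted p under 0.05 and more than 2 log2 units of change, 1 was higher and 3 lower, beside 57.3% of all genes tested in either direction. In 7 of 8 the untreated groups did not overlap, beside 83.2% of all genes. Their sizes are given below, beside a median log2 fold change of 0.54 over all genes tested and of −0.13 over the 8 keratins.

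**Figure D1:**
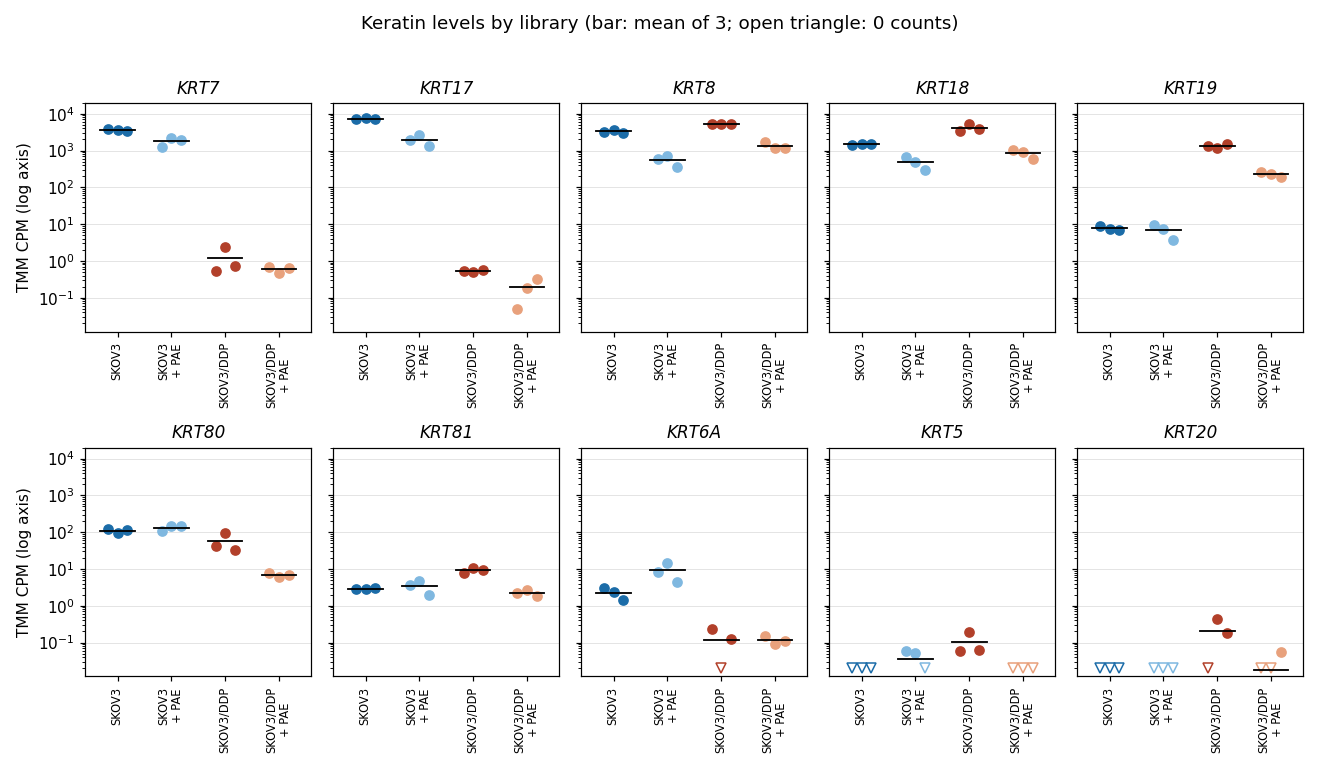
TMM CPM of the 10 keratins in each of the 12 libraries on a log axis, with a bar at the mean of 3 and an open triangle at the foot for a library with 0 counts. In the SKOV3 libraries KRT7 was at 1259 CPM or more and KRT17 at 1303 CPM or more, against at most 2.4 and 0.551 CPM in SKOV3/DDP, while KRT19 was at most 9.24 CPM in SKOV3 and at least 188 CPM in SKOV3/DDP.

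KRT17, a type I keratin of basal and activated epithelia, was the most abundant keratin of untreated SKOV3 by CPM per kb of gene length. Its 3 untreated SKOV3 libraries held 7407, 7536 and 7008 CPM, against 0.519, 0.505 and 0.551 CPM in untreated SKOV3/DDP, where these levels rest on 26 counts in all. The groups were far apart, with a log2 fold change of −13.75 ± 0.46 (SE, edgeR adjusted p = 8.48e-11), 13739-fold lower in SKOV3/DDP. With PAE in both lines, SKOV3 held 1895, 2563 and 1303 CPM of KRT17, and SKOV3/DDP 0.0491, 0.188 and 0.330 CPM. The difference was of like size there, −13.29 ± 0.47 (edgeR adjusted p = 1.31e-10). Removing the GC and length trend gave −11.40 untreated and −13.19 with PAE.

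KRT7, the type II keratin that marks glandular epithelia such as that of the ovary and fallopian tube, differed between the lines in the same direction as KRT17. Untreated SKOV3 libraries held 3748.5, 3625.5 and 3447 CPM, and untreated SKOV3/DDP libraries 0.519, 2.4 and 0.735 CPM. SKOV3/DDP replicate 2, the highest of its group, had 38 counts, against 9 and 12 in the others and 40670 or more in the untreated SKOV3 libraries. The log2 fold change was −11.54 ± 0.54 (edgeR adjusted p = 4.44e-10). With PAE, the SKOV3 libraries held 1259, 2189 and 1914 CPM and the SKOV3/DDP libraries 0.687, 0.470 and 0.660 CPM, a log2 fold change of −11.52 ± 0.55 (edgeR adjusted p = 9.22e-10). With the trend removed the values were −9.17 and −11.47. KRT7-AS, the antisense gene that overlaps KRT7, was at 10.6 ± 3.90 CPM in untreated SKOV3 and at 0.18 ± 0.184 CPM in untreated SKOV3/DDP.

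KRT19, the shortest type I keratin and one that lacks most of the tail domain, stood at the other end. It was at 8.78, 7.41 and 6.78 CPM in untreated SKOV3 and at 1366, 1136 and 1546 CPM in untreated SKOV3/DDP. The groups did not overlap, and the log2 fold change was 7.46 ± 0.36 (edgeR adjusted p = 5.43e-10), 176-fold higher in SKOV3/DDP. With PAE, SKOV3 held 9.24, 7.52 and 3.68 CPM and SKOV3/DDP 268.9, 228.9 and 188 CPM. The difference was then 5.07 ± 0.33 (edgeR adjusted p = 1.03e-08), 33.6-fold. The order of the groups was untreated SKOV3/DDP, then SKOV3/DDP with PAE, then both SKOV3 groups, which overlapped. With the trend removed the values were 9.98 untreated and 5.19 with PAE.

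KRT8 and KRT18, the simple-epithelial pair, were abundant in both lines. KRT8 was at 3153, 3699 and 3081 CPM in untreated SKOV3 and at 5213, 5405 and 5220 CPM in untreated SKOV3/DDP. All 3 SKOV3/DDP libraries lay above the SKOV3 libraries, by a log2 fold change of 0.67 ± 0.25 (edgeR adjusted p = 0.0214), little more than the median of all genes. This call was lost with DESeq2 (0.42, adjusted p = 0.127) and without SKOV3 replicate 1 or 3 or SKOV3/DDP replicate 1 or 3 (edgeR adjusted p of 0.0514 to 0.0718). KRT18 was at 1449, 1518 and 1526 CPM in SKOV3 and at 3383, 5425.5 and 3762 CPM in SKOV3/DDP. The groups did not overlap, and the log2 fold change was 1.48 ± 0.30 (edgeR adjusted p = 0.000325). Removing the trend widened the differences to 2.86 for KRT8 and 3.77 for KRT18.

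With PAE in both lines, KRT8 was again higher in SKOV3/DDP, with 1714, 1152 and 1185.5 CPM against 589, 709 and 357 CPM. The log2 fold change was 1.29 ± 0.25 (edgeR adjusted p = 0.000544). KRT18 held 1031, 916 and 595 CPM in SKOV3/DDP against 672, 494 and 287 CPM in SKOV3. These groups overlapped, since SKOV3 replicate 1 lay above SKOV3/DDP replicate 3. The log2 fold change of KRT18, 0.81 ± 0.30 (edgeR adjusted p = 0.0319), lost its call in a fit of only the groups compared (adjusted p = 0.0681) and without replicate 2 or 3 of PAE-treated SKOV3 or replicate 1 or 2 of PAE-treated SKOV3/DDP (adjusted p of 0.0687 to 0.132).

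Among the less abundant members, KRT80, a type II keratin of many epithelia, was at 122, 93.7 and 111 CPM in untreated SKOV3 and at 42.0, 96.4 and 32.3 CPM in untreated SKOV3/DDP. The groups overlapped, because SKOV3/DDP replicate 2 reached the level of SKOV3. The log2 fold change was −0.94 ± 0.32 (edgeR adjusted p = 0.0134), −1.55 without SKOV3/DDP replicate 2, −0.80 without replicate 1 and −0.69 without replicate 3. The call was lost without replicate 1 or 3 (adjusted p = 0.0513 and 0.0541), with scaling by library size only (−0.29), and with the trend removed (0.08, adjusted p = 0.821). With PAE the lines were clearly apart: 109, 145 and 146 CPM in SKOV3 against 7.60, 6.20 and 6.99 CPM in SKOV3/DDP, a log2 fold change of −4.26 ± 0.36 (edgeR adjusted p = 1.69e-07).

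KRT81, a hair keratin, was low throughout. In untreated SKOV3 it was at 2.84, 2.90 and 3.05 CPM, and in untreated SKOV3/DDP at 7.67, 10.5 and 9.18 CPM. Every SKOV3/DDP library was higher, by a log2 fold change of 1.63 ± 0.35 (edgeR adjusted p = 0.000497), and 3.85 with the trend removed. Its neighbour KRT86, with which it shares sequence, had means of 2.53 ± 0.640 CPM in SKOV3 and 2.74 ± 1.56 CPM in SKOV3/DDP. With PAE, KRT81 did not pass the test between the lines (−0.57 ± 0.34, edgeR adjusted p = 0.173), although it did without SKOV3 with PAE replicate 3 (−0.85, adjusted p = 0.0435).

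KRT6A, a type II keratin of stratified and wounded epithelia, was at 3.02, 2.30 and 1.44 CPM in untreated SKOV3. The SKOV3/DDP libraries had 4, 0 and 2 counts, a level of 0.118 ± 0.115 CPM, and the log2 fold change was −4.14 ± 0.69 (edgeR adjusted p = 5.40e-05), or −3.01 with the trend removed. With PAE it was −6.21 ± 0.67 (edgeR adjusted p = 2.15e-06). With PAE in both lines, 3 of the 8 keratins tested were higher and 4 lower in SKOV3/DDP, beside 27.5% and 27.1% of all genes tested (54.5% in either direction). Median log2 fold changes there were −2.42 for the keratins and 0.06 for all genes. By the stricter size limit above, 1 was higher and 4 lower, beside 24.6% of all genes. In 6 of 8 the groups did not overlap, beside 61.2% of all genes.

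KRT5 and KRT20 had too few counts to be tested. KRT5, the basal partner of stratified epithelia, had 0 counts in untreated SKOV3, 2 with PAE, 5 in untreated SKOV3/DDP and 0 with PAE. KRT20 had 0 counts in both SKOV3 groups, 10 in untreated SKOV3/DDP (0, 7 and 3 by library) and 1 after PAE. Against a floor of 3 counts per group, on the TMM scale, the 10 counts of KRT20 in untreated SKOV3/DDP were 2.34-fold the floor of untreated SKOV3. This ratio leaves out the counting error of the 10 counts, 7 of them in replicate 2, and the untreated groups overlapped at 0. The PAE ratio of KRT20 in SKOV3/DDP was 0.0827 (95% counting interval 0.00191 to 0.582, which covers counting error only). A group with 0 counts could still hold up to 0.0862 CPM in untreated SKOV3, 0.0537 CPM in PAE-treated SKOV3 and 0.0501 CPM in PAE-treated SKOV3/DDP.

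**Figure D2:**
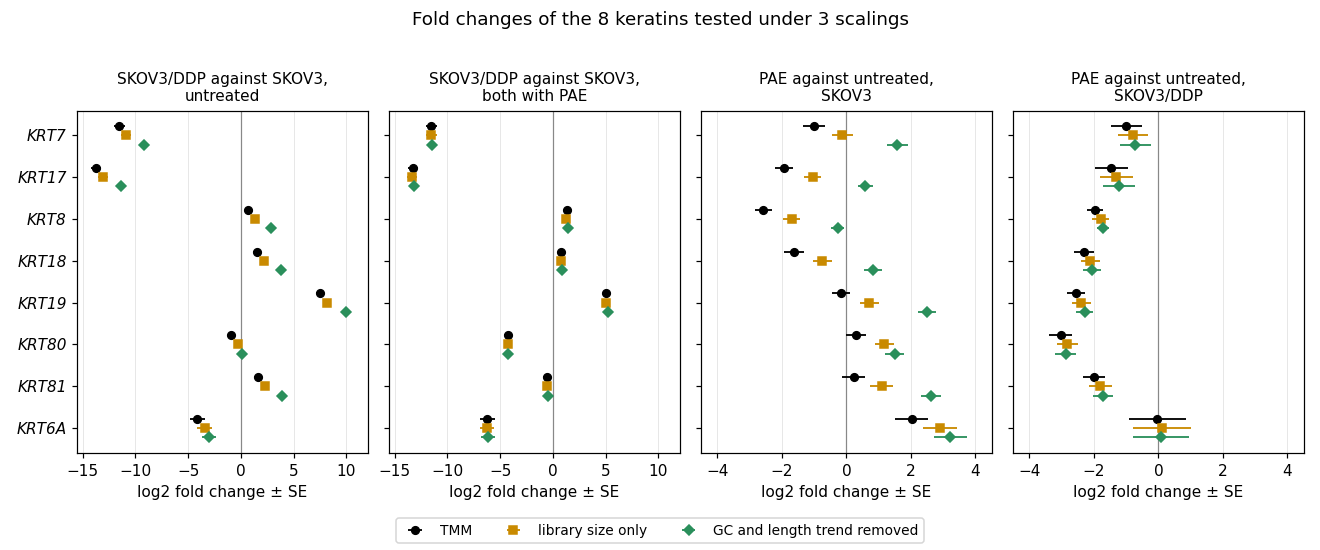
Log2 fold change ± SE of the 8 keratins tested, in 4 comparisons (panels, with a wider axis for the lines than for PAE) and under 3 scalings: TMM (circles), library size only (squares) and TMM with the GC and length trend removed (diamonds). Removing the trend moved the value for PAE in SKOV3 from −1.01 to 1.58 for KRT7 and from −0.17 to 2.51 for KRT19, and that for PAE in SKOV3/DDP from −2.56 to −2.29 for KRT19.

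In SKOV3/DDP, most of the listed keratins were lower with PAE. Of the 8 tested, 6 fell and 0 rose, beside 14.7% of all genes tested that fell and 11.8% that rose (26.4% in either direction). None rose at an unadjusted p under 0.05 either, nor with DESeq2 or limma-voom. By the size limit of 2 log2 units, 3 fell, beside 7.11% of all genes that moved either way. In 6 of 8 the groups did not overlap, beside 45.1% of all genes. Median log2 fold changes were −1.98 for the 8 keratins and 0 for all genes. KRT8 went from 5213, 5405 and 5220 CPM to 1714, 1152 and 1185.5 CPM, KRT18 from 3383, 5425.5 and 3762 CPM to 1031, 916 and 595 CPM, and KRT19 from 1366, 1136 and 1546 CPM to 268.9, 228.9 and 188 CPM. In each of the 3 every treated library lay below every untreated one. The log2 fold changes were −1.97 ± 0.26 for KRT8 (edgeR adjusted p = 0.000181), −2.31 ± 0.31 for KRT18 (0.000205) and −2.56 ± 0.29 for KRT19 (7.46e-05), or 3.91-, 4.94- and 5.90-fold lower.

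Of the 8 tested, KRT80 had the largest fall in SKOV3/DDP, to 7.60, 6.20 and 6.99 CPM from 42.0, 96.4 and 32.3 CPM. The log2 fold change was −3.04 ± 0.35 (edgeR adjusted p = 7.59e-05), and −2.42 without the high untreated replicate 2. KRT81 fell from 7.67, 10.5 and 9.18 CPM to 2.26, 2.73 and 1.87 CPM, at −1.99 ± 0.35 (edgeR adjusted p = 0.00110). These 5 falls passed the test in all 9 other settings tried and in all 6 fits without 1 library, with an adjusted p of at most 0.00852. KRT17, already near 0, had 26 counts untreated and 11 after PAE (−1.47 ± 0.51, edgeR adjusted p = 0.0453), and its call was lost in 9 alternatives, with an adjusted p of up to 0.165 without SKOV3/DDP with PAE replicate 1. KRT7 (−0.99 ± 0.48, edgeR adjusted p = 0.142) and KRT6A (−0.04 ± 0.89) did not pass.

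In SKOV3 the effect of PAE on the keratins depended on the scaling. This comparison shares the untreated SKOV3 libraries, and their GC trend, with that of the untreated lines. With TMM, 4 of 8 keratins fell and 1 rose, beside 32.7% and 42.6% of all genes tested (75.3% in either direction), and the median log2 fold changes were −0.59 for the keratins and 0.48 for all genes. By the size limit of 2 log2 units, 1 rose and 1 fell, beside 50.2% of all genes. In 5 of 8 the groups did not overlap, beside 77.4% of all genes. KRT8 went from 3153, 3699 and 3081 CPM to 589, 709 and 357 CPM (−2.59 ± 0.26, edgeR adjusted p = 3.50e-07). KRT17 went from 7407, 7536 and 7008 CPM to 1895, 2563 and 1303 CPM (−1.93 ± 0.28, edgeR adjusted p = 1.29e-05). In both, all treated libraries lay below all untreated ones.

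KRT18 followed, from 1449, 1518 and 1526 CPM to 672, 494 and 287 CPM (−1.63 ± 0.30, edgeR adjusted p = 0.000166). KRT7 changed least of the 4, from 3748.5, 3625.5 and 3447 CPM to 1259, 2189 and 1914 CPM (−1.01 ± 0.34, edgeR adjusted p = 0.0142), and was not called without SKOV3 with PAE replicate 1 (−0.81, adjusted p = 0.0661). KRT6A rose from 3.02, 2.30 and 1.44 CPM to 8.42, 14.6 and 4.47 CPM, with no overlap (2.02 ± 0.51, edgeR adjusted p = 0.00219). KRT19 (−0.17 ± 0.29), KRT80 (0.29 ± 0.32) and KRT81 (0.22 ± 0.35) did not pass, and their groups overlapped.

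Scaling by library size only raised all 8 values, as it raised the median of all genes from 0.48 to 1.36. KRT7 was then at −0.12 and not called, and KRT19, KRT80 and KRT81 were called higher, at 0.71, 1.18 and 1.10. With the GC and length trend removed, 6 keratins were called higher and 0 lower, beside 4187 and 3405 of the 15671 genes tested in that fit. The 6 were KRT6A 3.22, KRT81 2.63, KRT19 2.51, KRT7 1.58, KRT80 1.49 and KRT18 0.82. By that scaling KRT17 (0.58, edgeR adjusted p = 0.0529) and KRT8 (−0.27, edgeR adjusted p = 0.253) did not pass. At an unadjusted p under 0.05 none of the 8 was lower with the trend removed. Of the 8 keratins, KRT6A alone was called in the same direction under all 3 scalings of PAE in SKOV3.

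The difference of the PAE effect between the lines was tested as an interaction term. With TMM, the PAE effects on KRT19, KRT80 and KRT81 were lower in SKOV3/DDP than in SKOV3, where none of the 3 passed, with differences of −2.39 ± 0.40, −3.33 ± 0.46 and −2.21 ± 0.49 on the log2 scale (edgeR adjusted p = 0.000102, 1.75e-05 and 0.00105). These calls held in all 8 other settings and all 12 fits without 1 library. So 3 of 8 were lower and 0 higher, beside 37.4% and 25.5% of all genes tested (62.9% in either direction), and the same 3 passed the size limit, beside 45.5% of all genes. At an unadjusted p under 0.05 none was higher, and DESeq2 called KRT8 higher (0.89, adjusted p = 0.0255). KRT7 (0.02 ± 0.98), KRT8 (0.62 ± 0.35), KRT17 (0.46 ± 0.66), KRT18 (−0.68 ± 0.42) and KRT6A (−2.06 ± 1.09) did not pass. With the trend removed all 8 were lower, among them KRT19 at −4.80, KRT80 at −4.37, KRT81 at −4.35 and KRT8 at −1.45. In that fit 3447 of the 15671 genes tested were lower and 2960 higher.

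Levels of different keratins were compared per kb of the deposited gene length. This length was 2247 bases for KRT8 and 2904 for KRT7, against 1687 and 1754 for the transcripts used for GC content. For KRT18 it was 1497 against 1562. Shares by transcript length were not computed, so the order of KRT7, KRT8 and KRT18 is given for the deposited length only. In untreated SKOV3, KRT17 made up 55.2% ± 0.724 of the CPM per kb summed over all keratins, KRT8 16.8% ± 1.08, KRT7 14.2% ± 0.549, KRT18 11.5% ± 0.603 and KRT19 0.0630% ± 0.00810. With PAE in SKOV3 the order of the leading members became KRT17 (49.3% ± 4.43), KRT7 (25.1% ± 8.41), KRT18 (12.8% ± 4.60) and KRT8 (9.57% ± 1.22), the last 2 within their spread. Untreated SKOV3/DDP held KRT18 (44.7% ± 6.32), KRT8 (38.2% ± 3.47) and KRT19 (15.9% ± 3.68), with KRT7 at 0.00641% ± 0.00473 and KRT17 at 0.00564% ± 0.000753. After PAE these shares were 40.8% ± 4.85, 43.7% ± 4.84 and 11.99% ± 0.559, so SKOV3/DDP kept the same 3 leading keratins.

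**Figure D3:**
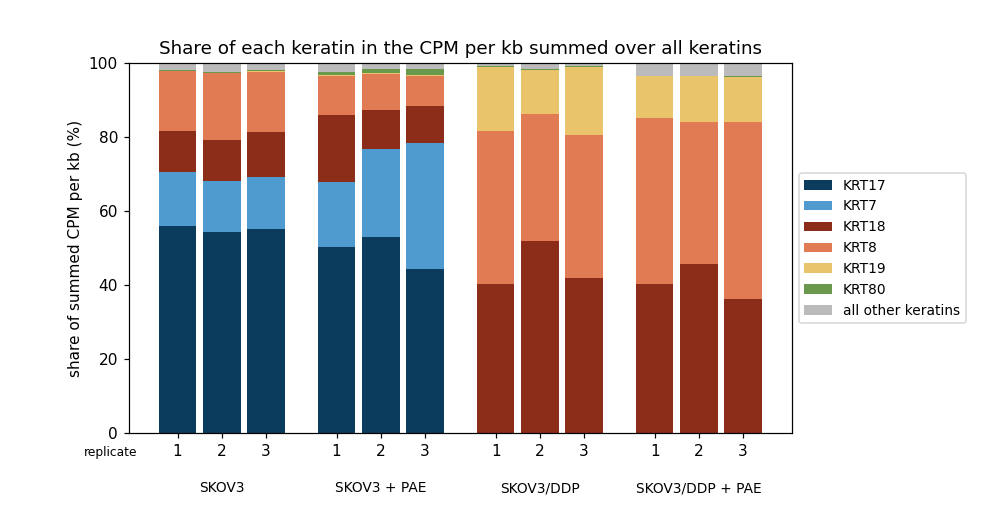
Share of each keratin in the CPM per kb summed over all keratins, 1 bar for each of the 12 libraries, grouped by line and treatment. KRT17 and KRT7 fill most of the 6 SKOV3 bars, and KRT18, KRT8 and KRT19 nearly all of the 6 SKOV3/DDP bars, with or without PAE.

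The 10 keratins took 1.04% ± 0.0188 of all counts in untreated SKOV3, 0.593% ± 0.135 with PAE, 1.15% ± 0.0379 in untreated SKOV3/DDP and 0.290% ± 0.0676 with PAE. Neither these shares nor the sums below were corrected for the GC trend of the untreated SKOV3 libraries. The keratin falls called with PAE in SKOV3 were not called with that trend removed, so the lower share there is given for uncorrected counts only. Since types I and II pair, their sums over the 10 were set side by side per kb of the deposited gene length. For KRT7 and KRT8 of type II this length exceeds that of the transcript used for GC content. For KRT17 (1517 against 1651 bases) and KRT18 of type I it falls below. The balance by transcript length was not computed, so the excess of type I is given for the deposited length only. By that length, type I exceeded type II in every library. The ratio of type II to type I was 0.470 ± 0.0153 in SKOV3, 0.595 ± 0.197 with PAE, 0.637 ± 0.0861 in SKOV3/DDP and 0.842 ± 0.166 with PAE. Each group overlapped its neighbour in that order. The untreated lines did not overlap: the highest SKOV3 library was at 0.487 and the lowest SKOV3/DDP library at 0.548. The ratio of KRT8 to KRT18 per kb ran from 1.35 to 1.62 in untreated SKOV3, from 0.584 to 0.956 with PAE, from 0.664 to 1.03 in SKOV3/DDP and from 0.838 to 1.33 with PAE.

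The genes whose pattern over the 12 libraries was most like that of a keratin, by root mean square difference of centred log2 CPM among 11445 genes, were found for 6 members. SPINK6 (0.57) and NNMT (0.92) were nearest to KRT17, where the median gene differed by 6.75, and SMOC1 (0.61) and G0S2 (0.62) to KRT7. SPINK6 was at 1711 ± 504 CPM in untreated SKOV3 and had 0 counts in SKOV3/DDP. URAD (0.37) and LINC00173 (0.42) were nearest to KRT19, with 0 counts in untreated SKOV3 and at 17.3 ± 1.59 and 24.5 ± 4.95 CPM in untreated SKOV3/DDP. FUOM (0.24) and ANXA6 (0.30) were nearest to KRT8, ANXA6 (0.37) and KLK10 (0.38) to KRT18, and TRABD2A (0.39) and ARPIN (0.56) to KRT80.

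The files list 45 other keratins, of which 12 could be tested. Between the untreated lines 6 of them were higher and 4 lower in SKOV3/DDP, beside 45.8% and 36.0% of all genes tested. With PAE in SKOV3/DDP 1 rose and 5 fell, beside 11.8% and 14.7%. With PAE in SKOV3 5 fell and 7 did not pass, beside 32.7% of all genes that fell and 42.6% that rose. With the trend removed, KRT14 (from −3.38 to −1.02) and KRT16 (from −2.35 to 0.13) were no longer called lower with PAE in SKOV3. The call of KRT16 was also lost with library size only, and without SKOV3 replicate 2 or SKOV3 with PAE replicate 2 or 3. KRT14, the type I partner of KRT5 and a close relative of KRT17, was at 37.2 ± 3.92 CPM in untreated SKOV3 and at 0.0414 ± 0.0359 CPM in untreated SKOV3/DDP (−9.60 ± 0.73, edgeR adjusted p = 4.93e-08, and −7.45 with the trend removed). KRT3 and KRT71, type II keratins of the cornea and the hair follicle sheath, were at 13.6 ± 6.35 and 13.5 ± 3.27 CPM in untreated SKOV3/DDP and had 1 and 3 counts in untreated SKOV3. KRT3 and KRT71 both fell with PAE in SKOV3/DDP, at −2.82 ± 0.46 and −2.18 ± 0.44 (edgeR adjusted p = 0.000982 and 0.00283).

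KRT10, a keratin of differentiating epidermis, moved the other way: 20.9 ± 3.55 CPM in untreated SKOV3/DDP became 42.6 ± 9.02 CPM with PAE (1.03 ± 0.22, edgeR adjusted p = 0.00389). KRT10 fell with PAE in SKOV3 (−1.95 ± 0.22, and −1.70 with the trend removed), and the difference between the lines was 2.98 ± 0.31 (edgeR adjusted p = 1.36e-06). KRT16, the hyperproliferation keratin of stratified epithelia, rested on 1 library: SKOV3/DDP replicate 2 held 119 CPM and the others of its group 3.23 and 5.02 CPM. That library was also the highest of its group for KRT5, KRT7, KRT8, KRT18, KRT20, KRT80 and KRT81. Its part in their values was not tested beyond the fits without it. KRT16 did not pass between the untreated lines (−1.95 ± 0.91, edgeR adjusted p = 0.0594), and was at −5.30 without that library and 0.35 with the trend removed. KRT34, a hair keratin, held 15.8 ± 7.32 CPM in PAE-treated SKOV3, against 0.593 ± 0.482 CPM in PAE-treated SKOV3/DDP (−4.69 ± 0.72, edgeR adjusted p = 6.53e-05).

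**Figure D4:**
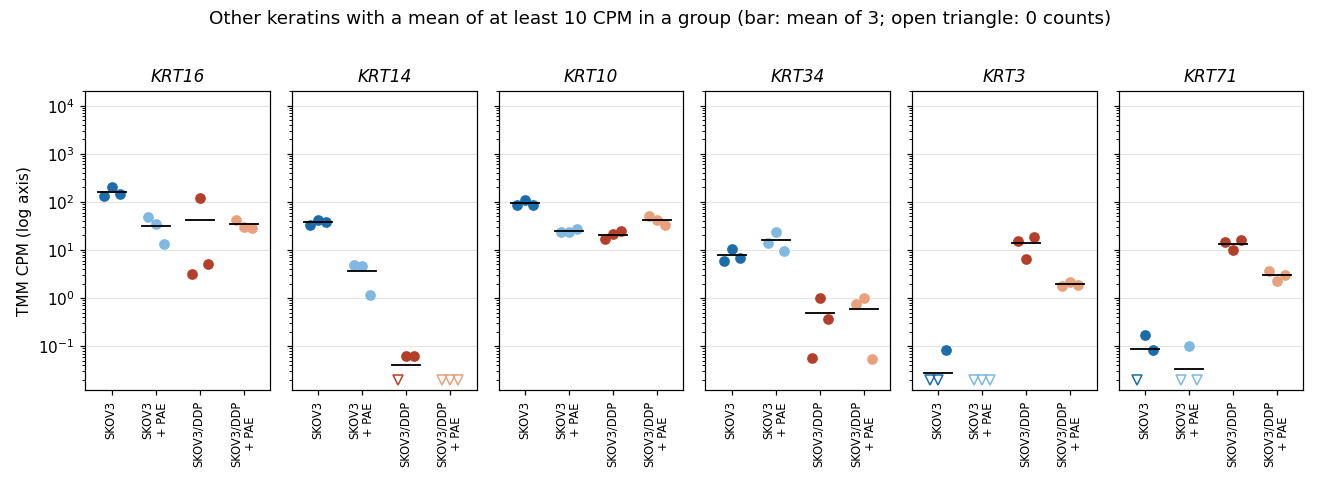
TMM CPM of the 6 other keratins that averaged 10 CPM or more in a group, in each of the 12 libraries on a log axis, with a bar at the mean of 3 and open triangles for 0 counts. KRT16 shows SKOV3/DDP replicate 2 at 119 CPM, apart from 3.23 and 5.02 CPM in the other libraries of its group.

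Genes that anchor or accompany keratins were described from lists. Of 16 desmosome, hemidesmosome and linker genes tested, 10 were higher and 5 lower in untreated SKOV3/DDP, near the background of 81.8% of all genes called (45.8% higher, 36.0% lower). PKP2, a desmosomal plakophilin, was at 0.688 ± 0.469 CPM in SKOV3 and 111 ± 17.5 CPM in SKOV3/DDP, while PKP1, the plakophilin of stratified epithelia, was at 16.5 ± 4.64 CPM and 0.0192 ± 0.0333 CPM. The log2 difference went from 7.32 to 5.63 for PKP2 and from −9.22 to −8.44 for PKP1 with the trend removed. With PAE in SKOV3, 8 of the 16 rose and 6 fell, beside 42.6% and 32.7% of all genes tested. Among them, DST went from 3.63 to 0.62 and PLEC from −2.86 to −0.99 on the log2 scale with the trend removed. With PAE in SKOV3/DDP, 8 of the 16 fell and the other 8 did not pass, beside 14.7% of all genes that fell and 11.8% that rose. ITGB4 and ITGA6, the integrin chains of the hemidesmosome, were at log2 fold changes of −1.78 ± 0.26 and −1.49 ± 0.39 (edgeR adjusted p = 0.000399 and 0.0116), the latter not called without SKOV3/DDP with PAE replicate 1 or 2. Of 12 other intermediate filament genes tested, 6 fell in SKOV3/DDP with PAE, beside 14.7% of all genes, among them NES (nestin, −3.49 ± 0.44, edgeR adjusted p = 0.000143) and DES (desmin, −2.83 ± 0.45, edgeR adjusted p = 0.000556). In SKOV3, 4 of these 12 rose with PAE and 2 fell, beside 42.6% and 32.7% of all genes tested. VIM, the filament of mesenchymal cells, was at 0.461 ± 0.430 CPM in untreated SKOV3 and 8.93 ± 1.13 CPM in untreated SKOV3/DDP.

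Markers of cell identity differed between the lines beside the keratins. EPCAM was at 1.26 ± 0.773 CPM in untreated SKOV3 and 288.6 ± 21.6 CPM in untreated SKOV3/DDP, CDH1 at 7.63 ± 5.01 and 442.1 ± 130 CPM, and PAX8, the Mullerian factor, at 29.7 ± 5.67 and 4.13 ± 1.25 CPM. Other ovarian and Mullerian markers went the other way. FOLR1 was at 0.118 ± 0.205 and 36.0 ± 4.87 CPM, and MSLN at 149 ± 6.05 and 388 ± 48.1 CPM. With the trend removed, the log2 difference between the untreated lines went from 7.83 to 6.54 for EPCAM, from 5.86 to 4.60 for CDH1 and from −2.85 to −1.81 for PAX8. It went from 8.20 to 9.66 for FOLR1 and from 1.38 to 3.67 for MSLN. WT1 had 0 counts in untreated SKOV3 and at most 6 in any group. Of the 8 intestinal markers, 6 could be tested and all 6 were higher in untreated SKOV3/DDP, beside 45.8% of all genes. Their summed level ran from 6.05 to 8.48 CPM in untreated SKOV3, from 25.7 to 37.8 CPM with PAE, from 682 to 760 CPM in untreated SKOV3/DDP and from 307 to 420 CPM with PAE. The defining intestinal genes CDX2 and CDH17 had 0 counts in untreated SKOV3 and were at 163 ± 49.8 and 339 ± 51.3 CPM in untreated SKOV3/DDP. The part of such markers in the keratin results was not tested.

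For the lists that follow, 45.8% of all genes tested were higher and 36.0% lower between the untreated lines. Of 8 epithelial surface markers tested, 4 were higher and 3 lower in untreated SKOV3/DDP, and of 14 epithelial transcription factors and splicing regulators, 8 and 3. Of 5 ovarian and Mullerian markers tested, 3 were higher and 2 lower. Fibroblast markers summed to at most 33.4 CPM in any library, with 1 of 5 tested higher and 3 lower in untreated SKOV3/DDP. Blood cell markers summed to at most 72.5 CPM, nearly all of it CD14, and PTPRC had at most 2 counts in a group. Of 135 keratin pseudogenes 7 could be tested, 1 higher and 1 lower. The pseudogenes of KRT8 amounted to between 0.206% and 3.09% of its counts in a library and those of KRT18 to between 0.0796% and 0.473%. Those of KRT17 held 12 counts in all libraries together, and reached 22.2% of the few KRT17 counts in a SKOV3/DDP library.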

How the data were processed

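RNA sequencing libraries of the 4 groups, 3 per group, were analysed from the deposited counts. Per the submitters' processing notes, HISAT2 2.0.5, StringTie 1.3.3b, DESeq2 and edgeR were used; the counting tool, strand setting and read length are not given in the sources used here. The authors deposited raw read counts per gene, 1 table per library (14610008 to 18263479 counts). Here, 869 rows without a gene name (0.126% to 0.678% of counts) were left out. Genes passing edgeR's filterByExpr (17133, among them 8 of the 10 keratins) were fitted with edgeR 4.0.16's quasi-likelihood test on all 12 libraries in 4 groups, with TMM scaling and Benjamini-Hochberg adjustment at 0.05, for 5 comparisons: the lines untreated, the lines with PAE, PAE in each line, and the interaction. SE was taken as the size of the log2 fold change over the root of its F statistic. CPM per kb used the deposited gene length. The trend removed was a spline on GC content and length, known for 91.5% of tested genes. Alternatives were DESeq2 1.42.0, limma-voom (limma 3.58.1), other filters and scalings, a replicate block, pseudogene counts added to their parents, fits of only the groups compared, and fits without 1 library. The edgeR fit was tried on counts simulated with few genes changed and no GC trend. It recovered 14% to 25% of changes of 1 log2 unit and 81% to 86% of changes of 2. At most 0.0709% of unchanged genes were called. The libraries here differ from that setting in both respects, so these rates need not hold for them.

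Genes were named by rule: all members, other keratins that averaged 10 CPM or more in a group, at most 2 genes in each direction among the called genes of each other list, chosen by size of change, preset defining markers, and the 2 genes most alike each keratin that reached this average. CD14 and MUC16 were named after their values were seen. The keratins and all lists were chosen with earlier results of these data known. A planned comparison of protein sequences was not run, and a coding stretch of KRT17 and KRT19 from GENCODE 29 was used in its place.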

Additional observations from a re-analysis of the deposited data

Results flagged for a closer look

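The effect of PAE differed between the lines for 3 keratins by the interaction term. The difference, SKOV3/DDP minus SKOV3 on the log2 scale, was −2.39 for KRT19, −3.33 for KRT80 and −2.21 for KRT81 (edgeR adjusted p = 0.000102, 1.75e-05 and 0.00105). KRT19 was at 7.66 ± 1.02 CPM in untreated SKOV3 and KRT80 at 109 ± 14.4 CPM. None of the 3 passed the test for PAE in SKOV3 with TMM scaling, and all 3 were called higher there with the GC and length trend removed.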

How the results depend on the processing

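Of 623 single-keratin values under alternatives, 576 kept their side of the threshold, 25 lost and 13 gained a call, and 9 turned direction with a call before or after. The sign also changed in 20 of the 576, none of them called in either fit. For the untreated lines, 1 keratin was higher with the criteria of p under 0.05 unadjusted and more than 2 log2 units of change, and 1 was lower where at least 10 counts were asked of every library, a filter that tests fewer genes. With that filter 4106 of 10594 genes were lower. For PAE in SKOV3, the number higher was 4 with library size only, 0 with at least 10 counts in every library and 6 with the trend removed, and the number lower 2 with at least 10 counts, 0 with the trend removed and 1 with the criteria. Of all genes tested, 9058 of 17133 were higher with library size only, 4756 of 10594 with at least 10 counts and 4187 of 15671 with the trend removed. Lower were 4343 with at least 10 counts and 3405 with the trend removed. For PAE in SKOV3/DDP the criteria left 3 lower. With PAE in both lines the criteria left 1 higher, and at least 10 counts left 1 lower, the latter beside 2657 of 10594 genes. In the interaction 1 was higher with DESeq2 and 0 to 1 in fits without 1 library (KRT8 without SKOV3 with PAE replicate 2, 0.87), and 5 were lower with library size only and 8 with the trend removed. Of all genes tested, 4958 of 17096 were higher with DESeq2 and 4479 of 17809 without SKOV3 with PAE replicate 2. Lower were 7808 of 17133 with library size only and 3447 of 15671 with the trend removed. Called values turned with the trend removed for KRT80 between the untreated lines (0.082), for KRT7 (1.58), KRT17 (0.58), KRT18 (0.82) and KRT19 (2.51) with PAE in SKOV3, and for KRT7 (−2.29), KRT8 (−1.45) and KRT17 (−1.79) in the interaction. It turned with library size only for KRT19 with PAE in SKOV3 (0.71). The cause was not tested.

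Same-numbered libraries did not pair: of 18 same-numbered pairs 3 correlated above 0.1 (−0.171 to 0.117). With the replicate block, the keratins lower with PAE in SKOV3/DDP numbered 5, beside 2276 of 17133 genes (KRT17 was at −1.48, edgeR adjusted p = 0.0560).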
